A study of Bos taurus with 4 samples.

Results

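Cattle obtain vitamin A largely from plant carotenoids, and the enterocyte, the absorptive cell of the small intestine, is where much of this material is taken up and converted. SCARB1 and STRA6 are membrane proteins of uptake. BCO1 cleaves β-carotene to retinal, RBP2 carries retinol and retinal in the enterocyte cytoplasm, and LRAT makes the retinyl esters that leave the cell in chylomicrons or are stored. DHRS3 reduces retinal back to retinol, ALDH1A1 and ALDH1A2 oxidise retinal to retinoic acid, and CYP26B1 breaks retinoic acid down. These 9 genes were chosen by symbol, from their known roles and with earlier results of these data known. Each of the 9 matched a single row among the 29792 rows of the count files.

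The 9 genes were compared in 4 QuantSeq 3′ mRNA-Seq libraries, 1 each of small intestine, muscle, and intestinal organoids at passage 5 (P5) and passage 10 (P10), all from Hanwoo cattle; the donors were older than 24 months. The organoids were grown from jejunal crypts in Matrigel with IntestiCult medium and are epithelial cultures, whereas the intestine and muscle libraries are of tissue. The labels do not say which layers of the gut wall the intestine sample held, which muscle was taken, or whether the samples came from the same animal. With 1 library per condition there was no replicate check for any difference, so no p-value is given, and animal, culture and passage cannot be told apart. Intervals are 95% limits that cover counting error only.

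The intestine library held 17776273 reads, the muscle library 12917720, and the P5 and P10 libraries 13599831 and 17730571. Skeletal muscle markers summed to 46732 CPM (reads per 1000000 reads of the library) in the muscle library and to 3.66 CPM in intestine. Markers of epithelium summed to 1712 CPM in intestine, 9838 CPM in P5 and 9329 CPM in P10 organoids, and those of fibroblasts to 998, 3.68 and 0.282 CPM. Levels are given as reads and as CPM of the library total. Differences are log2 differences of quantile-normalised counts with 1 added, the normalisation named in the methods of the study, and are called at 2-fold where either of the compared libraries had 10 reads or more. The RN18S1 row, of an 18S ribosomal RNA, took 23.6% of the muscle reads and between 0.264% and 4.81% of the others. Library totals moved the median of all genes between intestine and muscle from 0.084 to 1.31 on the log2 scale. With RN18S1 left out of the totals, this median was still 0.987.

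In intestine, the 9 genes together took 2803 CPM, of which RBP2 made up 75.8%. Their sum was 528 CPM in P5 organoids, 306 CPM in P10 organoids and 75.8 CPM in muscle, and in these 3 libraries ALDH1A1 was the member with the most reads, at 56.9%, 57.1% and 53.5% of them. In number, 8 members had at least 10 reads in intestine, 8 in P5 organoids, 7 in muscle and 5 in P10 organoids. Intestine was thus dominated by the retinol carrier, and the organoids by a retinal-oxidising enzyme.

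**Figure D1:**
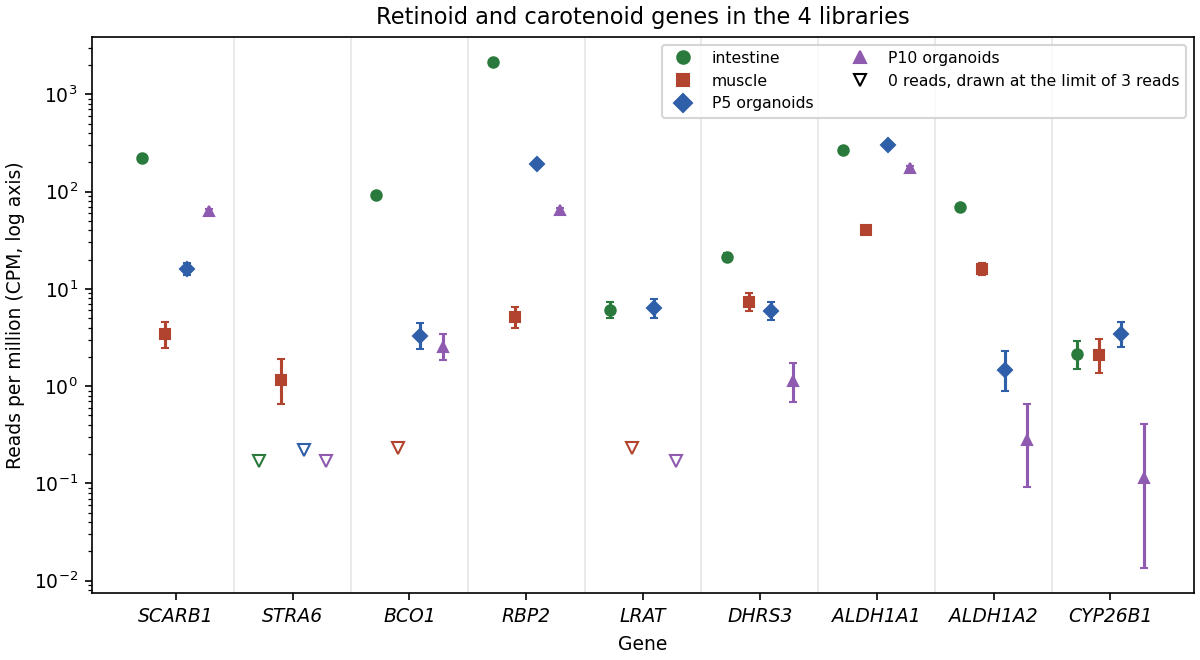
Level of each of the 9 genes in the 4 libraries, in CPM on a log axis with 95% exact Poisson intervals; open triangles are libraries with 0 reads, drawn at the limit of 3 reads. RBP2 stood at 2124 CPM in intestine against 191 in P5 and 64.6 in P10 organoids, while ALDH1A1 lay between 175 and 300.4 CPM in these 3 libraries.

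Of the uptake genes, SCARB1, the scavenger receptor that takes up carotenoids and other lipids, had 3948 reads in intestine and 44 in muscle, and P5 and P10 organoids held 217 and 1114. Intestine was highest, and P10 organoids were above P5 organoids, with no overlap of the intervals of any neighbours in that order. Against intestine, the log2 difference was -4.00 (interval -4.20 to -3.82) in P5 organoids and -2.15 (-2.26 to -2.06) in P10 organoids. SCARB1 was the only member at least 2-fold higher in P10 than in P5 organoids, with a log2 difference of 1.85 (1.65 to 2.06).

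STRA6, the receptor through which cells take up retinol bound to plasma RBP4, had 15 reads in muscle (1.16 CPM, 0.650 to 1.92) and 0 in intestine and both organoid libraries. A count of 0 allows up to 0.169 CPM in intestine and in P10 organoids, and 0.221 CPM in P5 organoids. Taking the 15 muscle reads as counted, muscle was therefore at least 6.88-fold higher than intestine per library total. This bound and those given below leave out the counting error of the library with reads. No fold was computed between the gut libraries.

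BCO1, the carotenoid cleavage enzyme, had 1623 reads in intestine (91.3 CPM, 86.9 to 95.9) and none in muscle. It was at least 393-fold higher in intestine per library total, and at least 169-fold with quantile normalisation. Both organoid libraries held 45 reads, or 3.31 CPM (2.41 to 4.43) in P5 and 2.54 CPM (1.85 to 3.40) in P10 organoids. The log2 difference from intestine was -4.75 (-5.15 to -4.39) in P5 and -5.03 (-5.40 to -4.71) in P10 organoids, and the 2 passages could not be separated (-0.28, interval -0.79 to 0.22).

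RBP2, the cellular retinol-binding protein of enterocytes, had 37748 reads in intestine and 66 in muscle, and P5 and P10 organoids held 2596 and 1145. Counted from the most abundant row, it ranked 40 in intestine, 752 in P5, 2858 in P10 organoids and 8354 in muscle. The log2 difference from intestine was -3.60 (-3.66 to -3.55) in P5 organoids and -5.24 (-5.34 to -5.16) in P10 organoids, and P10 organoids were -1.64 (-1.74 to -1.54) from P5 organoids. The 66 muscle reads came to 0.241% of the intestine level in CPM, beside 0.287% for FABP2 and 0.298% for APOB, both enterocyte markers. The other enterocyte markers lay between 0% (VIL1) and 3.19% (SI), a range that also holds SCARB1 at 1.53%, except for ANPEP, which had 152 reads in muscle and 125 in intestine. Whether these muscle reads came from intestinal RNA was not tested.

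LRAT, the esterifying enzyme, had 108 reads in intestine (6.08 CPM, 4.98 to 7.34), 86 in P5 organoids (6.32 CPM, 5.06 to 7.81), and 0 in both muscle and P10 organoids. Intestine and P5 organoids overlapped, with a log2 difference of 0.41 (-0.050 to 0.85) that was -0.11 with TMM. P10 organoids were at least 37.4-fold lower than P5 organoids and at least 35.9-fold lower than intestine per library total. With quantile normalisation, these bounds were 12.9-fold and 9.72-fold.

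DHRS3, the retinal reductase, which is itself induced by retinoic acid in many cells, had 380 reads in intestine and 95 in muscle, with 81 in P5 and 20 in P10 organoids. Both organoid libraries lay below intestine, by log2 differences of -1.83 (-2.15 to -1.51) and -3.78 (-4.31 to -3.24), and P10 organoids below P5 organoids (-1.95, interval -2.53 to -1.36). Intestine and muscle could not be separated with quantile normalisation (0.28, interval -0.030 to 0.61). Per library total, intestine was 2.91-fold higher than muscle (2.32 to 3.68), a log2 difference of 1.53 beside the median of 1.31 over all genes.

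ALDH1A1 had 4737 reads in intestine (266 CPM), 4085 in P5 organoids (300.4 CPM), 3099 in P10 organoids (175 CPM) and 524 in muscle (40.6 CPM). Of the 8 members with reads in the gut libraries it had the smallest log2 difference from intestine at both passages, although in CPM LRAT was nearer in P5 organoids (a ratio of 1.04 against 1.13). The log2 difference from intestine was -0.071 (-0.12 to -0.0058) in P5 organoids and took the opposite sign when scaled by library totals (0.17), by TMM (0.00076) or by the upper quartile (0.027). In P10 organoids it was -0.88 (-0.94 to -0.80), within 2-fold, and against muscle intestine was 1.93 higher (1.82 to 2.04).

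ALDH1A2, the other retinal dehydrogenase, had 1237 reads in intestine and 208 in muscle, but 20 in P5 and 5 in P10 organoids. The 4 libraries stood in that order on both scales with no overlap of neighbouring intervals, and the log2 difference from intestine was -5.38 (-6.09 to -4.81) in P5 and -6.88 (-7.72 to -6.12) in P10 organoids. Within a library, where no normalisation enters, there were 3.83 ALDH1A1 reads per ALDH1A2 read in intestine (3.60 to 4.08) and 2.52 in muscle (2.14 to 2.97). In P5 organoids there were 204 (132 to 335), and in P10 organoids 620 (265 to 1910). Both enzymes of retinoic acid synthesis were thus present in tissue, whereas ALDH1A2 stood at 1.47 CPM in P5 and 0.282 CPM in P10 organoids.

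CYP26B1, which inactivates retinoic acid, had low counts throughout, with 38 reads in intestine and 27 in muscle, 47 in P5 and 2 in P10 organoids. Per library total the first 3 libraries overlapped, between 2.09 and 3.46 CPM, and P10 organoids were lower, at 0.113 CPM (0.0137 to 0.407). With quantile normalisation P5 organoids were 1.39 above intestine on the log2 scale (0.75 to 2.02), which fell short of 2-fold with library totals, where the ratio was 1.62 (1.03 to 2.55). In CPM, P10 organoids were 30.6-fold lower than P5 organoids (8.02 to 260.4). The other CYP26 genes measured, CYP26A1 and CYP26C1, had no reads in any library.

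**Figure D2:**
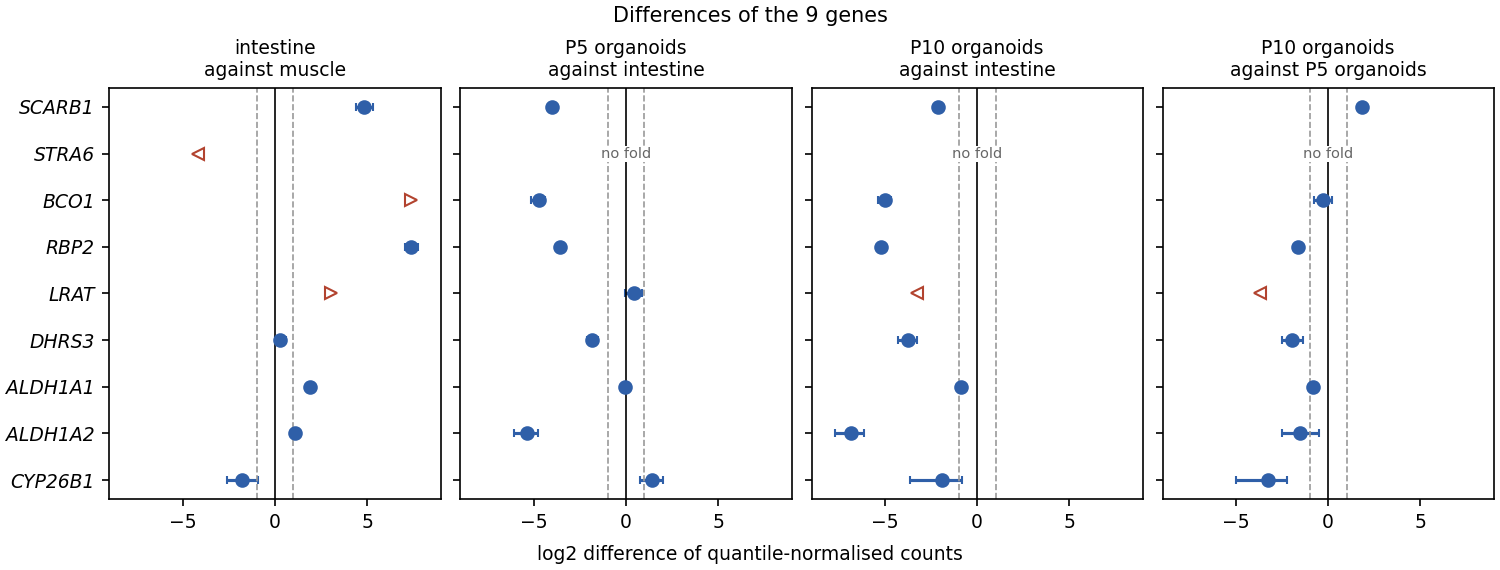
Log2 differences of quantile-normalised counts for the 9 genes in 4 comparisons. Circles carry 95% counting intervals, and dashed lines mark 2-fold. Open triangles are lower bounds on the size of a difference where 1 library had 0 reads, without the counting error of the other library. In the P10 against intestine panel 7 of the 8 plotted genes lie left of the lower dashed line, and ALDH1A1 lies inside it.

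Between intestine and muscle, 6 of the 9 members were at least 2-fold higher in intestine (SCARB1, BCO1, RBP2, LRAT, ALDH1A1 and ALDH1A2), beside 32.3% of the 17559 genes counted. STRA6 and CYP26B1 were at least 2-fold lower, beside 27% of all genes, and DHRS3 was within 2-fold. The ALDH1A2 difference of 1.06 (0.88 to 1.25) was close to the threshold and was 0.93 with upper-quartile scaling, whereas DHRS3 passed 2-fold with library totals. The CYP26B1 call rested on the normalisation: its log2 difference was -1.80 (-2.61 to -0.91) with quantile normalisation and 0.031 with library totals. Library totals made 83.3% of all genes past 2-fold higher in intestine, against 54.5% with quantile normalisation.

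Between P5 organoids and intestine, 8 members could be counted, since STRA6 had no reads in either. SCARB1, BCO1, RBP2, DHRS3 and ALDH1A2 (5 of 8) were at least 2-fold lower, beside 22.8% of 17783 genes. CYP26B1 (1 of 8) was at least 2-fold higher, beside 24.9%, and LRAT and ALDH1A1 were within 2-fold. The median log2 difference was -2.72, and that of all genes counted was 0.11. Of all genes past 2-fold, 52.3% were higher in P5 organoids with quantile normalisation and 40.5% with TMM.

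Between P10 organoids and intestine, 7 of the 8 members counted were at least 2-fold lower, beside 26.1% of 17803 genes. None of the 8 was at least 2-fold higher, beside 28% of all genes, and ALDH1A1 was within 2-fold. The median log2 difference was -4.41, or -3.53 with LRAT at its bound, and that of all genes counted was 0.11. Of all genes past 2-fold, 51.7% were higher in P10 organoids with quantile normalisation, 41.0% with TMM and 40.7% with upper-quartile normalisation. Both organoid comparisons used the same intestine library.

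Between the passages, 5 of 8 members were at least 2-fold lower in P10 organoids (RBP2, LRAT, DHRS3, ALDH1A2 and CYP26B1), beside 16.6% of 16131 genes. SCARB1 (1 of 8) was at least 2-fold higher, beside 16.1%, and BCO1 and ALDH1A1 were within 2-fold. The median was -1.57, and that of all genes counted was 0.061.

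In bulk RNA, fewer cells of a type and less RNA per cell cannot be told apart, so the levels were set beside cell type markers. All 7 epithelium markers exceeded their intestine level at least 2-fold in P5 organoids, with log2 differences from 1.81 to 3.56. In P10 organoids 5 of the 7 were, with EPCAM and CLDN7 within 2-fold. The members that were lower in organoids moved against these markers. Per 1000 reads of the epithelium markers, RBP2 had 1240 reads in intestine (1222 to 1259), 19.4 in P5 organoids (18.7 to 20.2) and 6.92 in P10 organoids (6.53 to 7.34). On this base SCARB1 went from 130 to 1.62 and 6.73, and BCO1 from 53.3 to 0.336 and 0.272. ALDH1A1 also stood lower on this base, with 156 reads in intestine, 30.5 in P5 and 18.7 in P10 organoids. Most reads of the base were of the keratins KRT8, KRT18 and KRT19, so values on it depend largely on keratin levels. KRT18 had 825, 7790 and 33299 reads in intestine, P5 and P10 organoids, and EPCAM had 5725, 14156 and 10244.

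Enterocyte markers summed to 8219 CPM in intestine, 4598 in P5 and 327 in P10 organoids, of which ANPEP made up 7.03, 2066.5 and 13.7. Their members did not move as one: of 8, ALPI, FABP2, APOB and MTTP were at least 2-fold lower in P5 organoids than in intestine, ANPEP and SI at least 2-fold higher, and VIL1 and DPP4 within 2-fold. In P10 organoids 6 of the 8 were lower than in intestine, ANPEP was higher and VIL1 was within 2-fold. FABP2, the intestinal fatty acid-binding protein, had 117512, 21036 and 1038 reads in intestine, P5 and P10 organoids. APOB had 16622, 971 and 7 reads in the same order, MTTP 4832, 193 and 1, and SI 2288, 6210 and 797. Against intestine, the log2 differences were -1.80 (P5) and -7.23 (P10 organoids) for FABP2, beside -3.60 and -5.24 for RBP2, a member of the same protein family. The part of enterocyte number in the levels of RBP2, BCO1 and SCARB1 was not tested.

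The ALDH1A2 levels were set beside stromal and myeloid markers. All 6 fibroblast markers were at least 2-fold lower in each organoid library than in intestine. Of the 6, 3 were at 0 in P5 organoids and 5 were at 0 in P10 organoids. The 5 smooth muscle markers summed to 1791 CPM in intestine, 12.6 in P5 and 7.56 in P10 organoids. In the same order, the 5 endothelial markers summed to 46.0, 1.54 and 2.31 CPM, and the 6 myeloid markers to 253, 22.9 and 20.0 CPM. Of the myeloid markers, 5 were at least 2-fold lower in each organoid library than in intestine. FLT3 went the other way, with 4.61, 18.4 and 17.1 CPM, and made up most of the organoid sums. The muscle library had less ALDH1A2 than intestine (16.1 against 69.6 CPM), but its fibroblast markers were not lower (1206 against 998 CPM). Which of these cells carried the ALDH1A2 reads of the tissues was not tested.

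**Figure D3:**
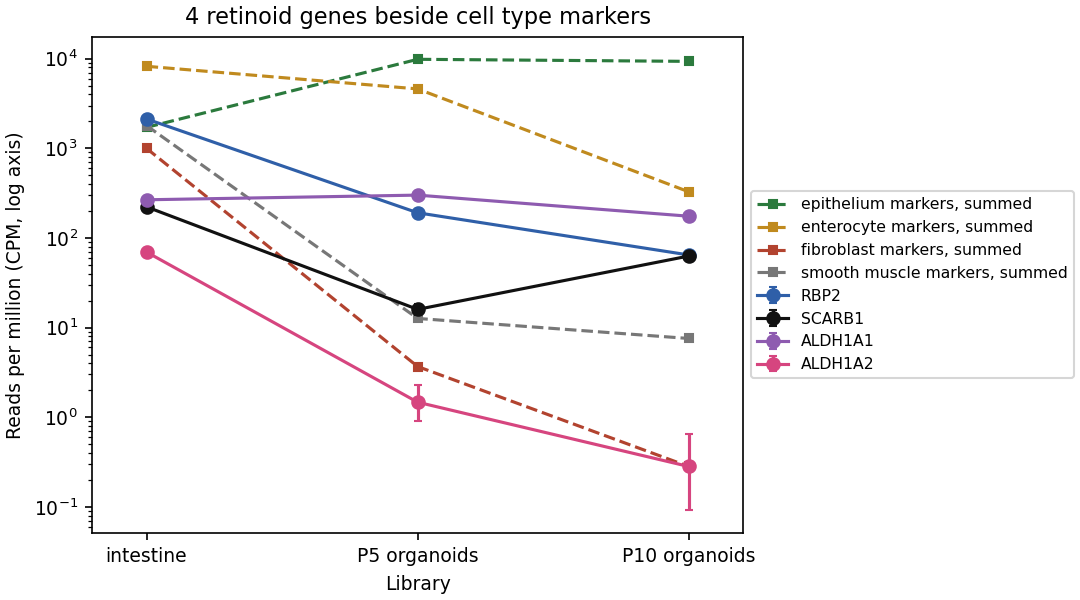
CPM, on a log axis, of 4 retinoid genes (solid lines, with 95% exact Poisson intervals) and of summed cell type markers (dashed lines) in intestine, P5 and P10 organoids. ALDH1A2 runs from 69.6 to 1.47 and 0.282 CPM and the fibroblast markers from 998 to 3.68 and 0.282 CPM, while the epithelium markers stand higher in both organoid libraries than in intestine.

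The other genes of retinoid metabolism, transport and response were a list of 46 symbols, of which 45 matched a row and 35 had at least 10 reads in any library. In intestine against muscle, 17 of the 33 counted were at least 2-fold higher and 6 lower, beside 32.3% and 27% of all genes. In P5 organoids against intestine, 5 of 34 were higher and 15 lower, beside 24.9% and 22.8%. In P10 organoids against intestine, 7 of 35 were higher and 17 lower, beside 28% and 26.1%. Between the passages 8 of 26 were higher in P10 organoids and 7 lower, beside 16.1% and 16.6%.

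Among transport genes, CD36, a fatty acid and carotenoid transporter, had 4394 reads in intestine, 16 in P5 and 3 in P10 organoids, and 1668 in muscle. RBP4, the plasma retinol carrier, had 820, 68, 92 and 135 reads in the same order. TTR, its partner in plasma, had 45 reads in intestine, 26 in muscle and none in organoids. All 3 were at least 2-fold lower in both organoid libraries than in intestine. ISX, the intestinal homeobox factor known to repress BCO1 and SCARB1, had 3 reads in intestine and 0 in muscle, with 8 in P5 and 32 in P10 organoids. P10 organoids were 3.07-fold higher than P5 organoids for ISX per library total (1.38 to 7.71). In the same step SCARB1 was 3.94-fold higher (3.40 to 4.58), and BCO1 had 45 reads at each passage. A relation of ISX to either gene was not tested.

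BCO2, the mitochondrial enzyme of asymmetric carotenoid cleavage, had 2617 reads in intestine, 724 in P5 and 434 in P10 organoids, and 56 in muscle. Its log2 difference from intestine was -1.70 (-1.83 to -1.58) in P5 organoids and -2.93 (-3.08 to -2.77) in P10 organoids, beside -4.75 and -5.03 for BCO1. CRABP1, a retinoic acid carrier, had 16 reads in intestine and none elsewhere.

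In the largest functional group, the enzymes that interconvert retinol and retinal, 4 of 12 genes counted were at least 2-fold lower and 3 higher in P5 organoids than in intestine, a share of lower genes not far from the 22.8% of all genes. In P10 organoids 6 of 12 were lower and 2 higher, beside 26.1% and 28% of all genes. RDH16, a retinol dehydrogenase, had 6334 reads in intestine, 20 in P5 and 2 in P10 organoids, and 3 in muscle. RETSAT, retinol saturase, had 1615 reads in intestine, 690 in P5 organoids and 12 in P10 organoids, so P10 organoids were -5.40 (-6.04 to -4.82) from P5 organoids on the log2 scale. ADH1C and RDH10 were at 0 in P10 organoids, against 32 and 16 reads in P5 organoids and 36 and 29 in intestine. DHRS9 had 72 reads in intestine and 1 in all other libraries together, and ADH4 had 10 reads in intestine and none elsewhere.

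Other enzymes of this group were within 2-fold of intestine or higher in organoids. SDR16C5, a retinol dehydrogenase of epithelia, had 21 reads in intestine, 45 in P5 and 184 in P10 organoids, and RDH13 had 130, 198 and 592. RDH11 had 344, 586 and 573 reads, and DHRS4 had 7305, 4656 and 4935 and was within 2-fold between these libraries. Of the ester hydrolases, LIPE, hormone-sensitive lipase, was highest in muscle, with 116 reads, and had 22 in intestine, 26 in P5 and 100 in P10 organoids. 

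**Figure D4:**
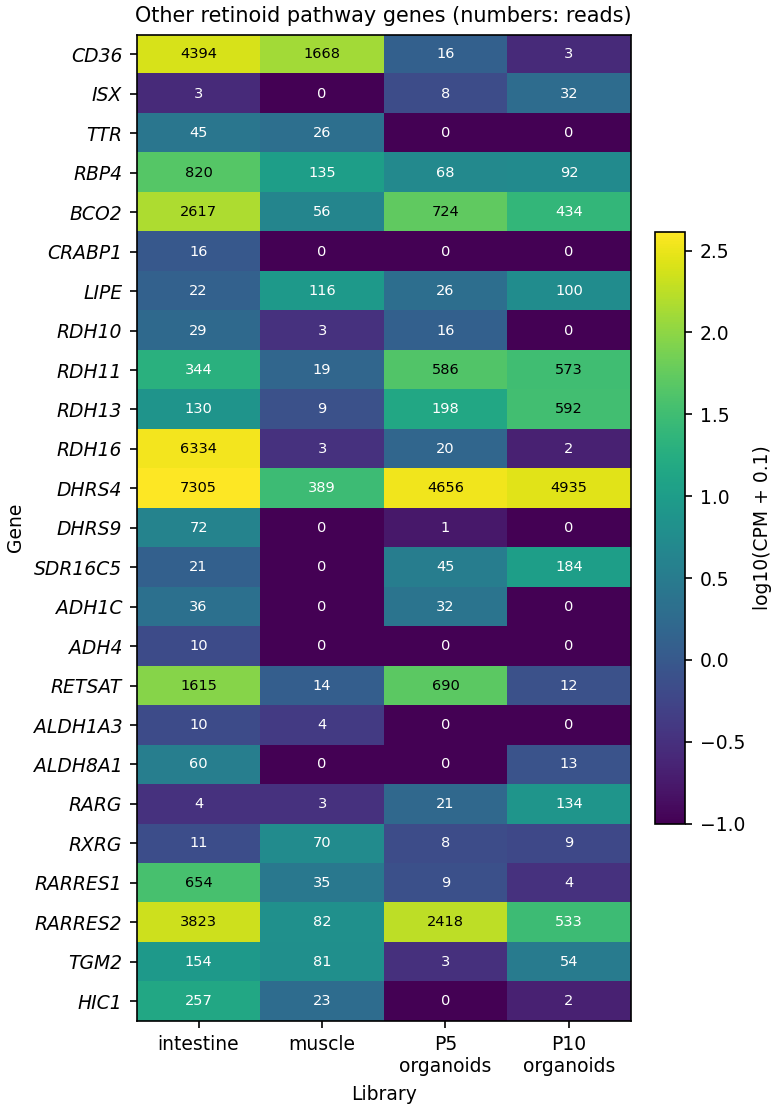
Read levels of 25 other retinoid pathway genes with at least 10 reads in a library and a log2 difference of at least 2 in any comparison, by library. Colour is log10 of CPM with 0.1 added, and the number in each cell is the read count; RDH16 and RETSAT darken from intestine to P10 organoids, and SDR16C5 and RARG brighten.

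Of the remaining genes of retinoic acid synthesis, ALDH8A1 had 60 reads in intestine, 0 in P5 and 13 in P10 organoids, and ALDH1A3 had 10, 0 and 0. Of the nuclear receptors of retinoic acid, RARA, RARB, RXRA and RXRB were within 2-fold in both organoid libraries against intestine with quantile normalisation. In CPM, RARB was 2.60-fold lower in P10 organoids than in intestine (1.80 to 3.83), and it was past 2-fold with TMM and upper-quartile scaling as well. RARG, the receptor typical of epithelia such as skin, had 4 reads in intestine, 3 in muscle, 21 in P5 and 134 in P10 organoids, a log2 difference from intestine of 3.46 (2.23 to 4.55) and 5.38 (4.33 to 6.35). RXRG, a receptor of muscle and nervous tissue, had 70 reads in muscle and between 8 and 11 in the other libraries. It was counted as higher in P10 organoids than in intestine (1.24, interval 0.10 to 2.28) on 9 against 11 reads, while the CPM ratio was 0.820 (0.300 to 2.18).

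Of 4 genes listed for their known response to retinoic acid, 3 were at least 2-fold lower than in intestine in P5 organoids, beside 22.8% of all genes, and 4 in P10 organoids, beside 26.1%. RARRES2, which encodes the chemokine-like protein chemerin, had 3823 reads in intestine, 2418 in P5 and 533 in P10 organoids. RARRES1 had 654, 9 and 4 reads, and HIC1 had 257, 0 and 2. TGM2, tissue transglutaminase, had 154 reads in intestine, 3 in P5 and 54 in P10 organoids. HIC1 was therefore within the limit of 3 reads in both organoid libraries. RARRES1 was above that limit but below 10 reads in both, and RARRES2 was well above 10. The fibroblast markers together had 17735 reads in intestine, 50 in P5 and 5 in P10 organoids. Which cells carried the reads of these 4 genes in intestine was not tested.

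For the 7 members with at least 50 reads in some library, the genes with the most similar profiles over the 4 libraries were found by Euclidean distance of centred log2 values, among 15051 genes. For RBP2 these were PIK3R5 (distance 0.30), FCGBP (0.49) and SEMA4A (0.59). FCGBP, a mucus protein of goblet cells, had 45246 reads in intestine, 3668 in P5, 1925 in P10 organoids and 72 in muscle. For BCO1 they were CHGA, the enteroendocrine granule protein (0.98), DNASE1L3 (1.11) and BST1 (1.34). For SCARB1 they were LOC112441815 (0.35), LGI1 (0.55) and LOC505468 (0.60), and for LRAT AZGP1 (0.95), GDPD2 (0.98) and MLPH (1.04). For DHRS3 they were CREBRF (0.34), GEM (0.47) and EXD1 (0.53). ALDH1A1 was nearest to PANX1, NAALAD2 and PRKD2, each at 0.12, and ALDH1A2 to PGM5 (0.40), NGFR (0.49) and PREX1 (0.53). A profile of 4 points describes these libraries only. In P10 organoids PIK3R5, LGI1, LOC112441815 and PREX1 rested on 1 to 3 reads and NGFR, AZGP1, GDPD2 and MLPH on 0. In muscle PIK3R5, LGI1 and LOC112441815 had 0 reads, against 66 for RBP2 and 44 for SCARB1. LGI1 and LOC112441815 also had only 1 read each in P5 organoids.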

How the data were processed

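RNA of 4 bovine libraries, 1 per condition, was measured with QuantSeq, which reads the 3′ ends of polyadenylated RNA. The authors aligned reads with Bowtie2 and counted unique and multiple alignments per gene with Bedtools, so reads shared by related genes are uncertain. The deposited values are whole-number counts without normalisation; the genome build is not given in the sources used here, and no coordinates are printed. Members and lists were chosen with earlier results of these data known.

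The 22200 rows with at least 1 read were quantile-normalised over the 4 libraries, and log2(value + 1) was used; the values did not differ from those of limma. After quantile normalisation a single read stood at 2.09 in muscle and P10 organoids, 0.81 in P5 organoids and 0.32 in intestine, so CPM is given beside low counts. CPM limits are exact Poisson limits. For differences, these limits were carried through the normalisation of each library and combined as the root of the summed squares. Ratios of reads have exact conditional binomial limits. PCR copies are not independent molecules. A library at 0 reads was given a limit of 3 reads, and folds against it are lower bounds that leave out the counting error of the other library. Named pathway genes had at least 10 reads in any library and a log2 difference of at least 2 in any comparison; genes making up small counts were named too. Of these, 1 gene is counted in its list but not reported here. Alternatives were library totals, edgeR TMM and upper-quartile factors, pseudocounts of 0.1 and 5, 2 read filters and rows summed by symbol; library totals without RN18S1 were added after seeing the data. The procedure was tested on simulated counts with counting error only and few rows changed. That test does not cover the broader differences between these libraries. Scaling factors came from edgeR 4.0.16, and limma 3.58.1 served as the check, both in R 4.3.3. All else ran in Python 3.11.15 (scipy 1.17.1, pandas 2.3.3, numpy 2.4.6), with plots from matplotlib 3.10.9.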

Additional observations from a re-analysis of the deposited data

Results flagged for a closer look

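CYP26B1 lay above intestine in P5 organoids, by a log2 difference of 1.39 (0.68 with library totals, 0.51 with TMM and 0.53 with the upper quartile). In P10 organoids it lay below intestine, by -1.89 (-3.63 with library totals and -3.77 with TMM or the upper quartile). The 2 organoid libraries thus moved in opposite directions from the same intestine library, but the P5 difference was past 2-fold only with quantile normalisation. The P10 value rested on 2 reads and the P5 value on 47, and the difference between the passages was not tested, since each has 1 library. Each condition has a single library, so no library could be compared with others of its group.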

How the results depend on the processing

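No paired analysis was possible because each condition has 1 library and no replicate could be left out. Of 72 alternative counts of members past 2-fold, 59 were within 1.5 times the reported count. Requiring 10 reads in every library removes BCO1, LRAT, STRA6, ALDH1A2 and CYP26B1 by construction. It left 3 members higher and 0 lower in intestine against muscle, 0 higher and 3 lower in P5 organoids against intestine, 3 lower in P10 organoids against intestine and 2 lower in P10 against P5 organoids. With library totals (with or without RN18S1) and TMM, 1 member, STRA6, was at least 2-fold lower in intestine than in muscle, in place of 2. Scaled by library totals (with or without RN18S1), TMM or the upper quartile, 0 members exceeded intestine 2-fold in P5 organoids, in place of CYP26B1 alone. Its log2 difference lay between 0.51 and 1.42 over the alternatives without the filter on every library, and in P10 organoids between -3.77 and -1.37. Scaled by the upper quartile, ALDH1A2 in intestine against muscle fell short of 2-fold (0.93). The sign of the intestine and muscle difference of CYP26B1 turned with library totals (0.031). That of ALDH1A1 between P5 organoids and intestine turned with library totals (0.17, or 0.18 without RN18S1), TMM (0.00076) and upper-quartile normalisation (0.027). Of the other pathway genes, the filter on every library left 7 higher and 2 lower in intestine against muscle, 0 higher and 3 lower in P5 organoids against intestine, 2 higher and 5 lower in P10 organoids against intestine and 2 higher and 3 lower between the passages. Lower in intestine than in muscle were 2 of these genes with library totals and 3 with TMM or upper-quartile normalisation, in place of 6. Higher in P5 organoids than in intestine were 3 with library totals or upper-quartile normalisation and 2 with TMM, in place of 5. Of 280 alternative values of single members, 223 stayed within the counting interval of the reported value, 52 moved outside it and 5 changed sign where that interval had excluded 0. Among the 52, LRAT between P5 organoids and intestine, whose interval included 0, turned negative with TMM (-0.11) and the upper quartile (-0.087). Genes with few reads (STRA6, CYP26B1, and ALDH1A2 and LRAT in P10 organoids) are limited by depth.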
